A study of Homo sapiens with 12 samples.

Results

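Telomerase and shelterin are the protein machineries that lengthen and cap chromosome ends, and the RNA of 10 genes that encode their parts was followed in MKL-1 cells. MKL-1 is a long-used cell line from a virus-positive Merkel cell carcinoma, a neuroendocrine skin cancer. The 10 genes are rows of the gene table that the authors deposited for the whole series, which holds 28813 genes. There were 5 telomerase genes (TERT, DKC1, NOP10, NHP2 and WRAP53) and 5 shelterin genes (TERF1, TERF2, TINF2, POT1 and ACD). The genes were chosen by symbol, but with earlier results of these data known, and TERT was set apart on its normalized signal in the 4 groups. For that reason its levels and differences stand here as a description without a p-value. The other 9 belong to the same complexes. TERF2IP, a further shelterin subunit, and GAR1, a further telomerase subunit, were not in the set and are described with the related genes.

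The libraries were made from polyA-selected RNA of 4 groups of 3 libraries. EPZ011989, an inhibitor of the histone methyltransferase EZH2, was given at 3 µM, and the cells were harvested on day 6 or on day 12. The vehicle groups of the same days received no inhibitor, and all 12 samples carried 1% ethanol and had their medium renewed during the treatment. All data come from a single cell line, and the labels do not say whether the libraries of a group came from separate cultures, so the p-values speak to the scatter of libraries, part of which may be technical. In bulk RNA, fewer cells that make a transcript and less of it in each cell cannot be told apart.

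Telomerase adds telomeric repeats to chromosome ends. TERT is the reverse transcriptase, and the RNA component TERC serves as its template. Dyskerin (DKC1), NOP10, NHP2 and GAR1 form the core of H/ACA ribonucleoproteins, which hold TERC and also the small nucleolar RNAs that guide pseudouridylation, and WRAP53 (also called TCAB1) brings the enzyme to Cajal bodies. Shelterin covers the repeats: TERF1 and TERF2 bind the double-stranded part, POT1 binds the single-stranded overhang, ACD (also called TPP1) joins POT1 to TINF2 and recruits telomerase, and TINF2 bridges ACD to TERF1 and TERF2. TERT is silent in most adult tissues and active in most cancers, whereas the other genes are expressed broadly. TERC is not analysed here.

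The libraries held 15994997 to 20866370 estimated reads, and 3.08 to 3.58% of them lay on transcripts with no gene in the annotation used for names. All 11 Merkel cell markers were present, with a summed normalized signal of 68248 to 69908 in EPZ011989 cells and 83559 to 84960 in vehicle cells at day 6, and of 69979 to 71346 against 80096 to 85188 at day 12. The markers did not move alike. By limma 1 was higher and 7 lower at day 6, beside 24.3% of all genes called. At day 12, 3 were higher (CHGA, KRT18 and SYP) and 5 lower, beside 60.8%. The sums of 6 leukocyte markers reached at most 43.2, those of 4 endothelial markers 47.6 and those of 5 fibroblast markers 556, and COL1A1 among the last was higher in EPZ011989 cells at both days, by 1.38 ± 0.45 and 3.84 ± 0.45 on the log2 scale (limma adjusted p = 0.0379 and 4.99e-06). COL1A1 signals at day 12 were 68.1, 162 and 61.6 in EPZ011989 cells against 3.8, 4.5 and 8.2 in vehicle cells. In vehicle cells COL1A1 was lower at day 12 than at day 6 (-2.26 ± 0.45, limma adjusted p = 0.0359). DCN, another fibroblast marker, was higher at both days (0.95 ± 0.28 and 0.68 ± 0.28, limma adjusted p = 0.0250 and 0.0492), and the endothelial marker VWF was higher at day 12 (3.34 ± 1.05, limma adjusted p = 0.0140). VWF signals were low, 6.8, 22.8 and 8.7 in EPZ011989 cells against 0, 0.7 and 0 in vehicle cells, and a day 6 vehicle library had 23.7. The fibroblast marker COL1A2 and the endothelial marker PECAM1 passed at neither day (limma adjusted p = 0.796 and 0.110 at day 12). All 14 genes of a proliferation list were lower in EPZ011989 cells at day 12, led by MKI67 (log2 fold change -2.38 ± 0.05 (SE), limma adjusted p = 2.34e-13), and 12 of them at day 6, beside 29.8% of all genes called lower at day 12 and 10.9% at day 6. The part of these shifts in the results on the 10 genes was not tested.

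Upstream sequences of 3 genes are shown because their RNAs behaved differently at day 12: DKC1 and ACD were lower in EPZ011989 cells and NOP10 was level. Each runs from 250 bases before to 50 bases after the transcript start (RefSeq, build GRCh38.p14), on the gene's strand. Capitals mark the letters GGGCGG (a GC box), CACGTG (an E-box, the kind of site that MYC and MAX bind) and CCGGAAG (an ETS-type site), each searched on both strands.
DKC1, chrX:154762614-154762913, plus strand: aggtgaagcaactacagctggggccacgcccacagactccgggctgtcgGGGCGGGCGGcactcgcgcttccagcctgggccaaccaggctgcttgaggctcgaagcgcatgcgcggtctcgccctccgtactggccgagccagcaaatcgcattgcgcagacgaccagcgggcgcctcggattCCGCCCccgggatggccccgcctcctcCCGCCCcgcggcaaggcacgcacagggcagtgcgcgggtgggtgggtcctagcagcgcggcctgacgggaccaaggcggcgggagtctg
ACD, chr16:67660211-67660510, minus strand: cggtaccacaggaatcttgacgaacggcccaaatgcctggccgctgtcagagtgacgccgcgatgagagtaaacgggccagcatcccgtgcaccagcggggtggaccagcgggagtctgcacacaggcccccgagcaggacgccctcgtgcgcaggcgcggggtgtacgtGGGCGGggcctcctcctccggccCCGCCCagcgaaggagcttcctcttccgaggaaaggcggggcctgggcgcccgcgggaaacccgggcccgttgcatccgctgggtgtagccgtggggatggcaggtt
NOP10, chr15:34343087-34343386, minus strand: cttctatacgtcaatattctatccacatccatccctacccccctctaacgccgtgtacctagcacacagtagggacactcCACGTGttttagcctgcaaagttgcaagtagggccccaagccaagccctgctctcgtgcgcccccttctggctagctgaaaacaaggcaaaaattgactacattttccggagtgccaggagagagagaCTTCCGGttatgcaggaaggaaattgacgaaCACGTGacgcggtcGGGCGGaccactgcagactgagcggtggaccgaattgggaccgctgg
The DKC1 window held 4 GC boxes, 2 of them overlapping, and the ACD window held 2, and neither held the E-box or ETS letters. The NOP10 window held 2 E-boxes, 1 ETS-type site and 1 GC box. Windows were found for 8 of the 10 genes, 11 windows in all, since WRAP53 has 3 and TINF2 has 2, with TERF1 and TERF2 unmatched. GC box letters were in 9 of the 11 windows, at least 1 for each of the 8 genes, and in 44.95% of 35116 windows of this length. E-box letters were in 2 of the 11 (TERT and NOP10) against 7.26% of all windows, and ETS letters in 3 (NOP10 and both of TINF2) against 10.26%. The letters TTTGAA, of the cell cycle homology region type, were in 2 windows, both of WRAP53, against 15.16%, and GGCGGGAA, of the E2F type, which can overlap the GC box, were in none of the 11 against 3.16%. A match describes letters, not a bound factor.

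Levels between genes were compared per transcript length, as TPM, a unit scaled for transcript length and library total, summed per gene. The median over the 12 libraries ran from 292 TPM for NOP10 and 234 TPM for NHP2, both short H/ACA subunits, through 82.0 TPM for DKC1, 46.1 TPM for TERF1, 44.9 TPM for TERF2, 31.8 TPM for TINF2, 29.7 TPM for ACD and 21.7 TPM for WRAP53, to 12.2 TPM for POT1 and 2.66 TPM for TERT. Only part of the POT1 and TERT reads could be summed: relative to the authors' gene value and the median gene, the sum reached 0.469 for POT1 and 0.518 for TERT, against 0.984 to 1.005 for the other genes. By library it ran from 0 to 1.21 for TERT. For POT1 it was 0.679 in EPZ011989 replicate 3 of day 6 and 0.392 to 0.473 in the other libraries of that day. The order held in 11 or 12 of 12 libraries for most neighbours. The place of POT1 below WRAP53 rests on the partial sum of POT1 and is uncertain. For 2 pairs the order differed between groups. TERF1 was above TERF2 in 1 of 6 EPZ011989 libraries (0 of 3 at day 12) and in 6 of 6 vehicle libraries, and TINF2 was above ACD in 6 of 6 EPZ011989 libraries and in 3 of 6 vehicle libraries.

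TERT (GRCh38 chromosome 5, 1253147 to 1295069, minus strand) had the lowest level of the 10. Values per library below are the authors' normalized signal, in the order of replicates 1, 2 and 3. At day 6 TERT had 91.5, 117 and 23.3 in EPZ011989 cells, against 98.6, 202 and 55.5 in vehicle cells. These groups overlapped, and replicate 3 was the lowest library of each. At day 12 it had 4.75, 0.812 and 3.91 in EPZ011989 cells, against 81.3, 70.3 and 128 in vehicle cells. All 3 EPZ011989 libraries lay far below all 3 vehicle libraries. The mean at day 12 was 3.16 ± 2.07 in EPZ011989 cells and 93.3 ± 30.8 in vehicle cells (SD, n = 3 each).

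Fold changes are on the log2(value + 1) scale, on which low genes appear to change less than they do. TERT differed between EPZ011989 and vehicle cells by -0.70 at day 6 (95% interval -2.05 to 0.65) and by -4.62 at day 12 (-5.97 to -3.27). These intervals describe the scatter of libraries and are not used as a test.

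The reads behind this are few. Estimated reads on the matched TERT transcripts numbered 59, 31 and 27 in EPZ011989 cells at day 6, against 68, 86 and 56 in vehicle cells. At day 12 they numbered 6, 1 and 0 in EPZ011989 cells, against 46, 25 and 50 in vehicle cells. Summed over the group and divided by the summed matched reads of its libraries, TERT at day 12 (7 reads in EPZ011989 cells) had a depth-scaled ratio of EPZ011989 to vehicle of 0.0519 (exact 95% interval 0.0204 to 0.110, counting error only). At day 6 the sums were 117 reads in EPZ011989 cells and 210 in vehicle cells, with a depth-scaled ratio of 0.593 (0.469 to 0.747). The part of TERT that could be summed varied between libraries, which these intervals do not cover. A count of 0 on the matched transcripts allows up to 3 matched reads, which was 0.174 CPM in EPZ011989 replicate 3 of day 12. The authors' signal was 3.91 in that library, and this limit does not cover reads on unmatched transcripts.

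The full-length TERT transcript, TERT-201 (1132 codons, 16 exons), is the one that encodes the active enzyme. It was assigned 41.3, 25.6 and 27.5 reads in EPZ011989 cells at day 6, against 48.4, 57.0 and 54.7 in vehicle cells. At day 12 it was assigned 0 reads in each EPZ011989 library, against 31.9, 0 and 39.0 in vehicle cells. The vehicle library with 0 had 19.4 reads on TERT-202, a coding transcript of 1069 codons, so the split between similar transcripts is uncertain at this depth.

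**Figure D1:**
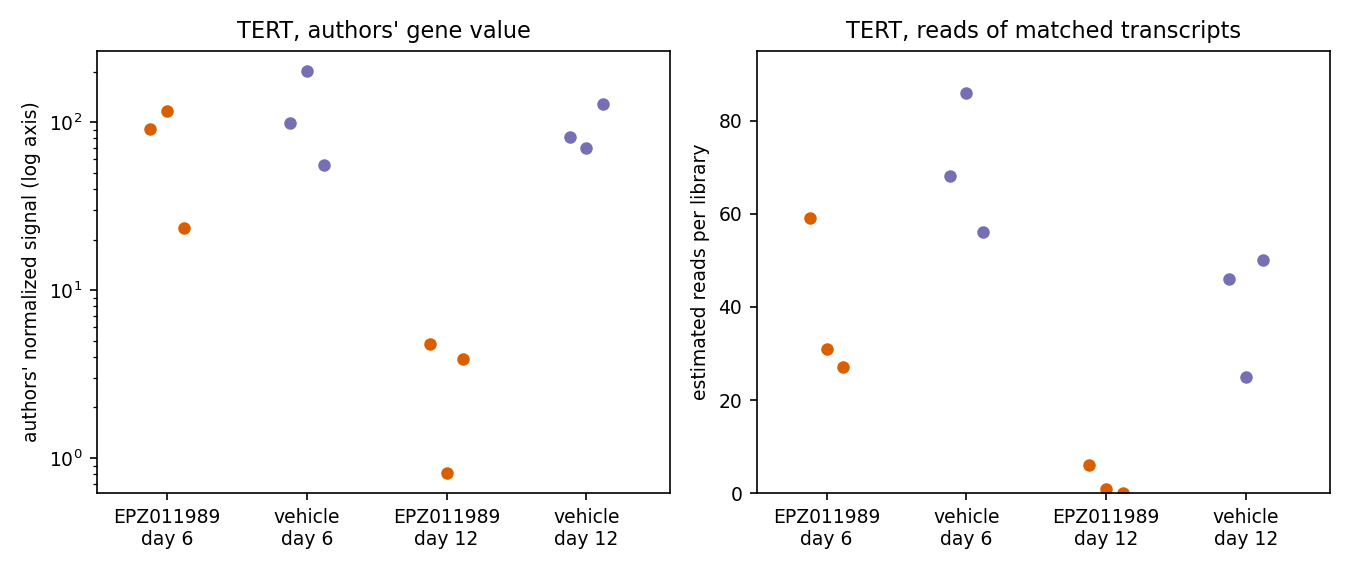
TERT in each library (points) by group. The left panel gives the authors' normalized signal on a log axis and the right panel the estimated reads on matched TERT transcripts; at day 12 the EPZ011989 libraries lie at 0.812 to 4.75 and at 0 to 6 reads, below vehicle libraries at 70.3 to 128 and at 25 to 50 reads.

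The plot of TERT by library shows the overlap at day 6 and the gap at day 12 in both measures.

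Among the H/ACA proteins the subunits did not move alike. DKC1, the pseudouridine synthase dyskerin (chromosome X, 154762742 to 154777689), fell in EPZ011989 cells at day 12. It had 1229, 1197 and 1167 in EPZ011989 cells against 1992, 2021 and 1913 in vehicle cells, with no overlap and narrow spread in both groups. The log2 fold change was -0.72 ± 0.06 (SE; limma adjusted p = 1.72e-07). At day 6 it had 1709, 1877 and 1819 in EPZ011989 cells against 1993, 2108 and 1986 in vehicle cells. All EPZ011989 libraries were lower then too, by -0.17 ± 0.06 on the log2 scale (limma adjusted p = 0.0529), and edgeR on the summed reads gave -0.19 ± 0.05 (adjusted p = 0.00475).

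NOP10, the smallest H/ACA subunit (chromosome 15, 34341713 to 34343177), gave no difference. It had 466, 617 and 603 in EPZ011989 cells at day 12, against 384, 607 and 734 in vehicle cells, so the vehicle libraries spanned the EPZ011989 ones. The log2 fold change was 0.01 at day 12 (95% interval -0.39 to 0.41) and 0.00 at day 6 (-0.40 to 0.40), with limma adjusted p = 0.982 and 0.995. These intervals still hold changes of the size seen for NHP2.

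NHP2, the H/ACA subunit that binds beside NOP10 (chromosome 5, 178149460 to 178153967), had 1100, 1228 and 1069 at day 6 in EPZ011989 cells, against 1325, 1401 and 1507 in vehicle cells. The groups did not overlap, with a log2 fold change of -0.32 ± 0.13 (limma adjusted p = 0.0871; edgeR -0.35 ± 0.11, adjusted p = 0.0277). At day 12 it had 782, 946 and 731 in EPZ011989 cells, against 888, 1016 and 1275 in vehicle cells. The groups overlapped by 1 library, and NHP2 fell by 0.36 ± 0.13 on the log2 scale (limma adjusted p = 0.0241). This call was lost without vehicle replicate 3 (-0.22, adjusted p = 0.119) and without EPZ011989 replicates 1 (0.0698) or 3 (0.0990), with libraries scaled to equal totals (-0.31, 0.0542), and with only the day 12 libraries in the fit (0.0666). NHP2 has 2 pseudogene copies and overlaps RMND5B on the opposite strand, so its reads are uncertain where they could be shared, and whether counting used the strand is not stated.

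WRAP53, the Cajal body factor (chromosome 17, 7686071 to 7703502), had 371, 426 and 395 in EPZ011989 cells at day 6, against 466, 590 and 505 in vehicle cells, without overlap. The fall was 0.38 ± 0.11 on the log2 scale (limma adjusted p = 0.0232). The call was lost without EPZ011989 replicate 1 (limma adjusted p = 0.0859) or 3 (0.0594) and without vehicle replicate 2 (0.112) or 3 (0.0512) of that day. At day 12 it had 402, 407 and 403 in EPZ011989 cells, against 382, 373 and 425 in vehicle cells, and the groups overlapped (0.04 ± 0.11, limma adjusted p = 0.770).

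**Figure D2:**
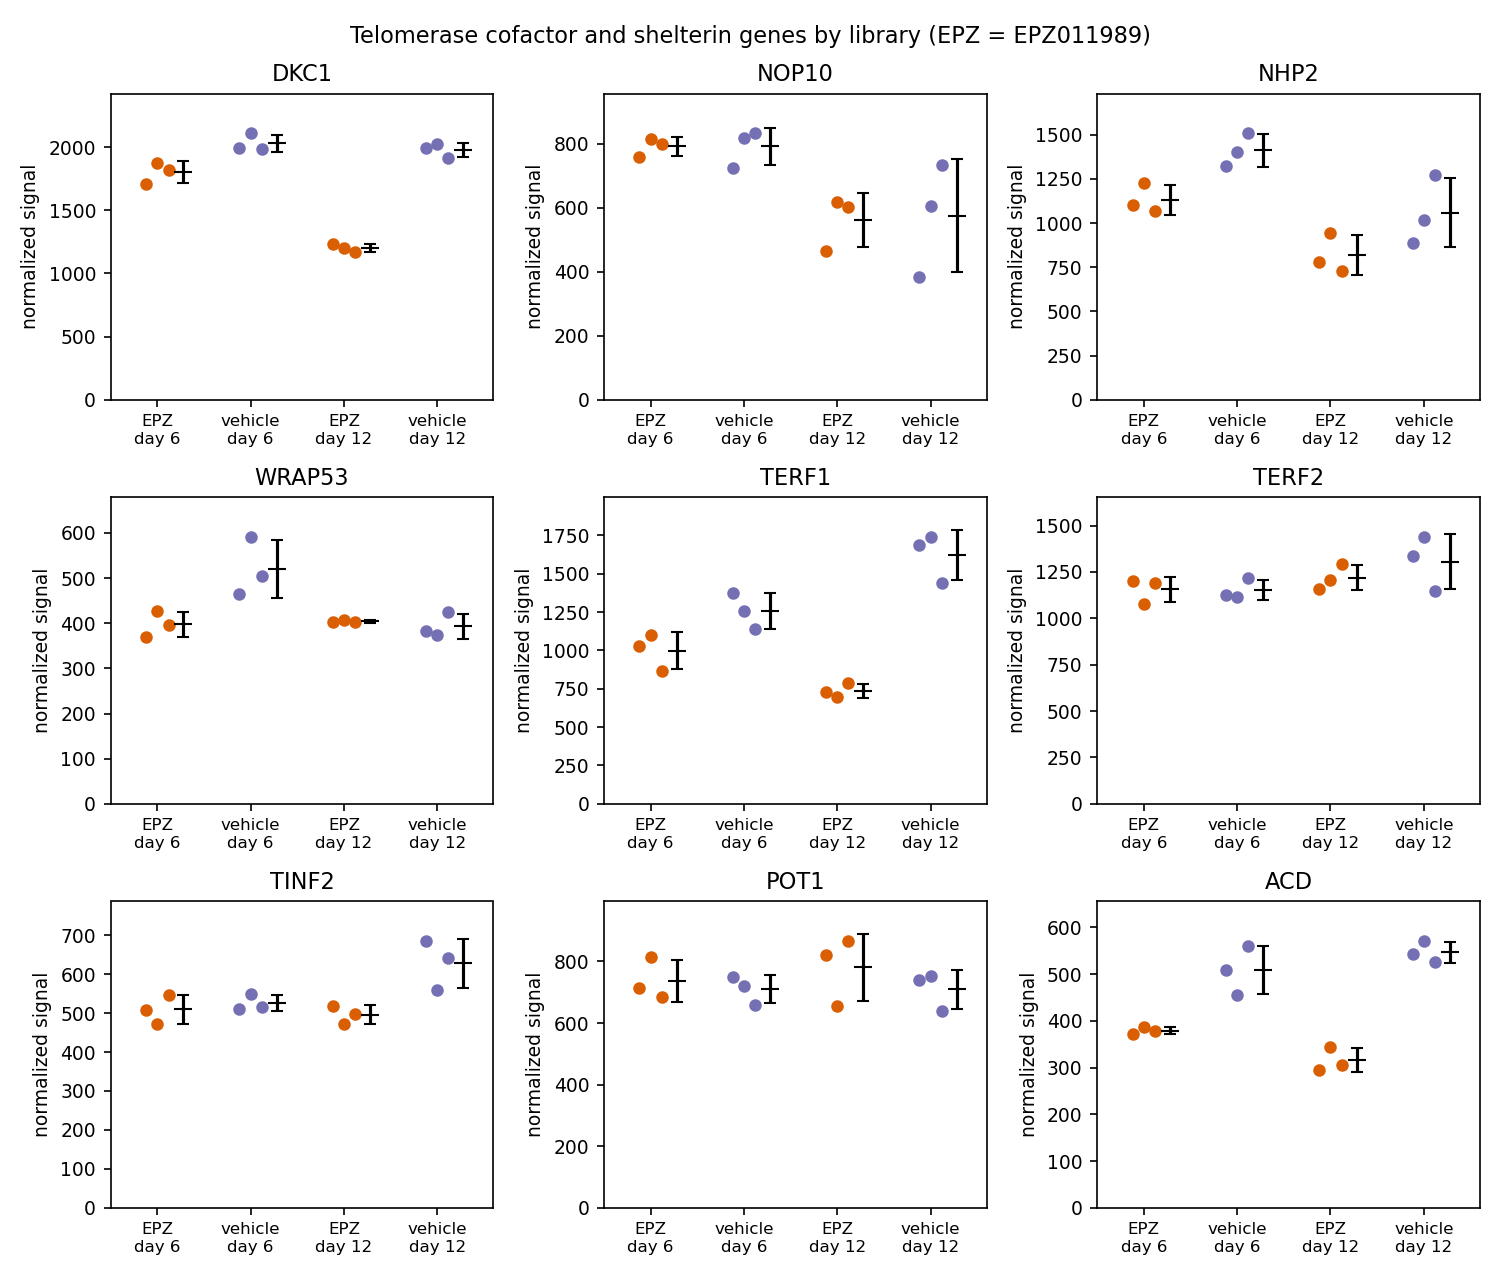
Normalized signal of the 9 genes other than TERT in each library (points), with mean and SD of 3 libraries (black); each axis starts at 0. DKC1, TERF1 and ACD of EPZ011989 libraries lie below all vehicle libraries at both days, while TERF2 and POT1 overlap.

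The shelterin genes also divided, and the plot of the 9 genes by library shows this. TERF1, which binds the double-stranded repeat and limits lengthening (chromosome 8, 73008864 to 73048122), had 726, 697 and 785 in EPZ011989 cells at day 12, against 1690, 1736 and 1437 in vehicle cells. Every EPZ011989 library was below every vehicle library by a wide margin, and the log2 fold change was -1.14 ± 0.11 (limma adjusted p = 5.83e-07). At day 6 it had 1026, 1102 and 868 in EPZ011989 cells, against 1376, 1256 and 1141 in vehicle cells. The groups were apart by a small gap, and TERF1 fell by 0.33 ± 0.11 on the log2 scale (limma adjusted p = 0.0349). The day 6 call was lost without EPZ011989 replicate 1 (0.0628) or 3 (0.149), without vehicle replicate 1 (0.131) or 2 (0.0857), and with libraries scaled to equal totals (0.0521). TERF1 has 5 processed pseudogenes, with which it could share reads.

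TERF2, the related protein that holds the protective loop at the chromosome end (chromosome 16, 69355561 to 69408571), did not pass at either day. At day 12 it had 1158, 1207 and 1290 in EPZ011989 cells, against 1334, 1436 and 1147 in vehicle cells, and the groups overlapped. The log2 fold change was -0.10 (95% interval -0.29 to 0.10) at day 12 and 0.00 (-0.19 to 0.19) at day 6, with limma adjusted p = 0.371 and 0.988. As TPM, the ratio of TERF1 to TERF2 was 0.966 ± 0.163 in EPZ011989 cells and 1.22 ± 0.160 in vehicle cells at day 6, and 0.672 ± 0.0280 in EPZ011989 cells and 1.38 ± 0.0332 in vehicle cells at day 12 (SD, n = 3 each). The ratio thus lay on opposite sides of 1 in the 2 groups of day 12.

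ACD, the subunit that recruits telomerase (chromosome 16, 67657512 to 67660815), had 295, 345 and 306 in EPZ011989 cells at day 12, against 544, 570 and 526 in vehicle cells. The groups were well apart, with a log2 fold change of -0.79 ± 0.11 (limma adjusted p = 2.05e-05). At day 6 it had 372, 387 and 378 in EPZ011989 cells, against 510, 456 and 559 in vehicle cells. This was a fall of 0.42 ± 0.11 on the log2 scale, without overlap (limma adjusted p = 0.0116; without vehicle replicate 3, -0.35 and 0.0599).

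TINF2, the bridging subunit (chromosome 14, 24239643 to 24242674), had 518, 471 and 499 in EPZ011989 cells at day 12, against 684, 560 and 640 in vehicle cells. The groups did not overlap, and TINF2 was lower in EPZ011989 cells by 0.34 ± 0.10 on the log2 scale (limma adjusted p = 0.0104). From day 6 to day 12 the mean went from 509 to 496 in EPZ011989 cells and from 526 to 628 in vehicle cells. On summed reads edgeR gave a smaller difference that did not pass (-0.16 ± 0.07, adjusted p = 0.0590), and so did DESeq2 (-0.15, adjusted p = 0.140). At day 6 it differed by -0.05 ± 0.10 (limma adjusted p = 0.774).

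POT1, the single-strand binding subunit (chromosome 7, 124822386 to 124929983), had 820, 656 and 865 in EPZ011989 cells at day 12, against 741, 752 and 637 in vehicle cells. The groups overlapped, with log2 fold changes of 0.13 (95% interval -0.12 to 0.38) at day 12 and 0.05 (-0.20 to 0.30) at day 6 (limma adjusted p = 0.350 and 0.791). On the partial sum of its reads edgeR gave 0.39 ± 0.13 at day 6 (adjusted p = 0.0302) and 0.19 ± 0.13 at day 12 (adjusted p = 0.201). The summed part of POT1 varied between libraries, and its share in these values was not tested.

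Counted together, at day 6 limma called 0 of the 10 genes higher and 3 lower, beside 24.3% of the 14618 genes tested called in either direction, 13.4% higher and 10.9% lower. At an unadjusted p under 0.05, 0 were higher. On summed reads edgeR and DESeq2 each called 1 higher, POT1 on its partial sum, and 5 lower, beside 34.3 and 32.3% of all genes called. At day 12, with TERT left out, limma called 0 higher and DKC1, NHP2, TERF1, TINF2 and ACD lower. This stands beside 60.8% of the genes tested called in either direction, 31.0% higher and 29.8% lower. At an unadjusted p under 0.05 there were also 0 higher. Again with TERT left out, edgeR and DESeq2 each called 0 higher and DKC1, NHP2, TERF1 and ACD lower, beside 66.9 and 55.0% of all genes called. All EPZ011989 libraries lay below all vehicle libraries for DKC1, NHP2, WRAP53, TERF1 and ACD at day 6, where 22.1% of all genes did. At day 12, TERT left out, they did so for DKC1, TERF1, TINF2 and ACD, where 31.1% of all genes did. The median log2 fold change of the 5 shelterin genes was -0.05 at day 6 and -0.34 at day 12, and over all genes tested it was -0.02 and 0.02. Because the genes were chosen with earlier results known, nothing is read from these counts. NHP2, called lower at day 12, overlapped, and the 4 genes that did not pass at day 12 were NOP10, WRAP53, TERF2 and POT1.

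**Figure D3:**
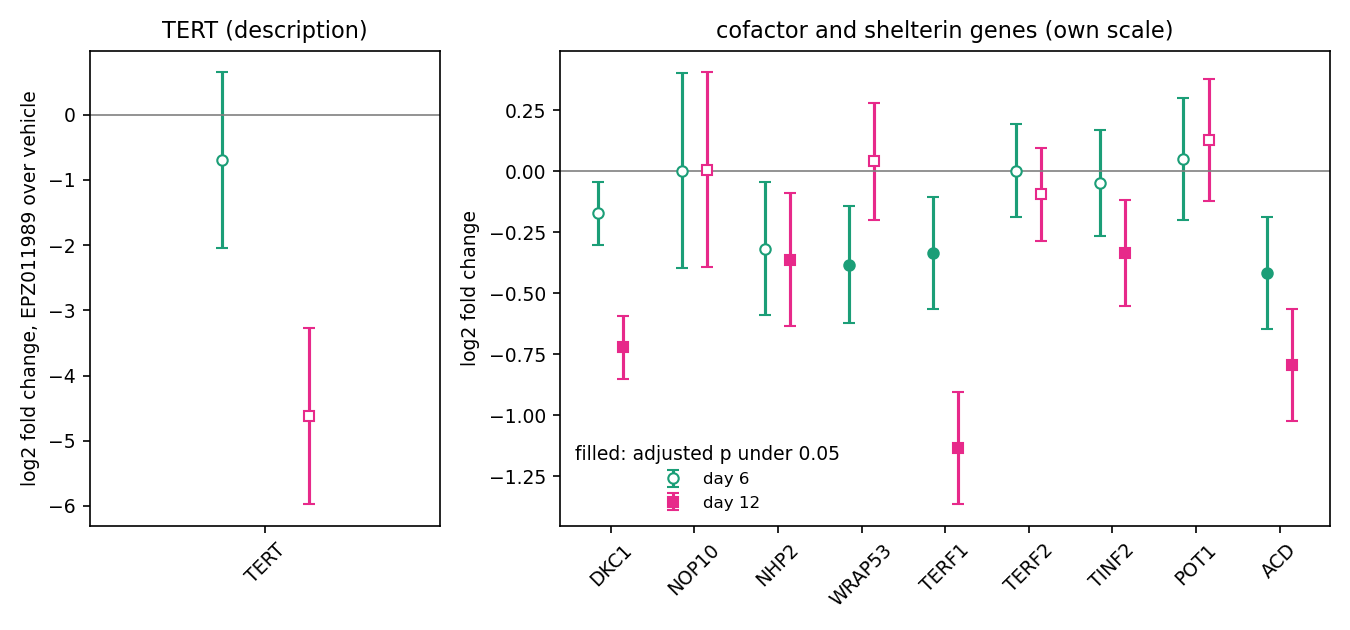
Log2 fold change of EPZ011989 over vehicle for each gene at day 6 (circles) and day 12 (squares), with 95% intervals from limma. TERT has its own axis and is a description; among the others TERF1 (-1.14), ACD (-0.79) and DKC1 (-0.72) have the lowest day 12 values, and NOP10, WRAP53, TERF2 and POT1 lie near 0.

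As the plot of fold changes shows, some genes were lower mainly at day 12. The difference of the effects, day 12 minus day 6, was -0.55 ± 0.09 on the log2 scale for DKC1 (limma adjusted p = 2.12e-04) and -0.80 ± 0.15 for TERF1 (9.60e-04). It was -0.38 ± 0.15 for ACD (limma adjusted p = 0.0661; edgeR -0.36 ± 0.12, 0.0252) and 0.42 ± 0.16 for WRAP53 (limma adjusted p = 0.0491). For TERT it was -3.92 ± 0.89. With TERT left out, DKC1 and TERF1 had a lower and WRAP53 a higher effect at day 12 by limma. This stands beside 37.2% of all genes with a different effect (19.6% lower, 17.6% higher). By edgeR DKC1, TERF1 and ACD had a lower and WRAP53 a higher effect, beside 47.8% of all genes. The WRAP53 call was the weakest and was lost under 15 of its 24 alternatives.

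In vehicle cells day 12 was set against day 6. No member passed (0 of 10 by limma, beside 0.971% of all genes), but 5 of the 10 had an unadjusted p under 0.05, and edgeR and DESeq2 on summed reads each called 3 (NHP2, WRAP53 and TERF1), beside 13.1 and 22.8% of all genes. Without replicate 3 of the day 12 vehicle group limma called 4. NHP2 had a log2 fold change of -0.43 ± 0.13 (limma adjusted p = 0.0931), WRAP53 one of -0.40 ± 0.11 (0.0802) and TERF1 one of 0.37 ± 0.11 (0.0876). NOP10 had one of -0.51 ± 0.19 (0.153) and TINF2 one of 0.25 ± 0.10 (0.188). For WRAP53 the day 6 vehicle libraries were the high ones, and the other 3 groups lay between 371 and 426. For TERF1 the vehicle libraries were higher at day 12 and the EPZ011989 libraries lower.

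The fall of TERF1 was uneven over its transcripts, a feature that was examined after its values were seen. In the annotation used for names, TERF1-201 has 419 codons and 9 exons, and TERF1-202 has 439 codons and 10 exons. An exon of 60 bases is present only in TERF1-202, and the last exon of TERF1-201 runs 1651 bases farther there. The deposited lengths were 3268 bases for TERF1-201 and 3329 bases for TERF1-202. The longer end therefore cannot be taken to separate their reads. At day 12 TERF1-201 held 20.6, 21.6 and 32.6% of the summed TERF1 reads in EPZ011989 cells, against 52.1, 52.2 and 51.4% in vehicle cells. Its share differed by -27.0 percentage points (exact permutation p = 0.1, two-sided, the smallest that 3 against 3 libraries can give). The share of TERF1-202 was 51.3 ± 8.78% in EPZ011989 cells and 29.0 ± 1.70% in vehicle cells (SD, n = 3 each).

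At day 6 TERF1-201 held 52.1 ± 2.77% in EPZ011989 cells and 53.2 ± 6.69% in vehicle cells (SD, n = 3 each; exact permutation p = 0.8). In reads, TERF1-201 had 157, 172 and 231 at day 12 in EPZ011989 cells, against 745, 785 and 622 in vehicle cells. TERF1-202 had 401, 473 and 298 in EPZ011989 cells, against 425, 455 and 328 in vehicle cells. The first fell by 2.12 ± 0.17 on the log2 scale (edgeR over 58086 transcripts, adjusted p = 1.10e-05, beside 18.1% of transcripts called), and the second differed by -0.24 ± 0.20 (adjusted p = 0.483). A test over the gene's transcripts found unequal change at day 12 (edgeR adjusted p = 1.17e-04, beside 8.82% of genes). For each transcript relative to the gene, the same test did not pass (adjusted p = 0.182 for TERF1-201 and 0.904 for TERF1-202, beside 1.24% of transcripts). Transcripts that share most of their sequence are split by estimation, so each transcript's reads are less certain than the gene's.

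**Figure D4:**
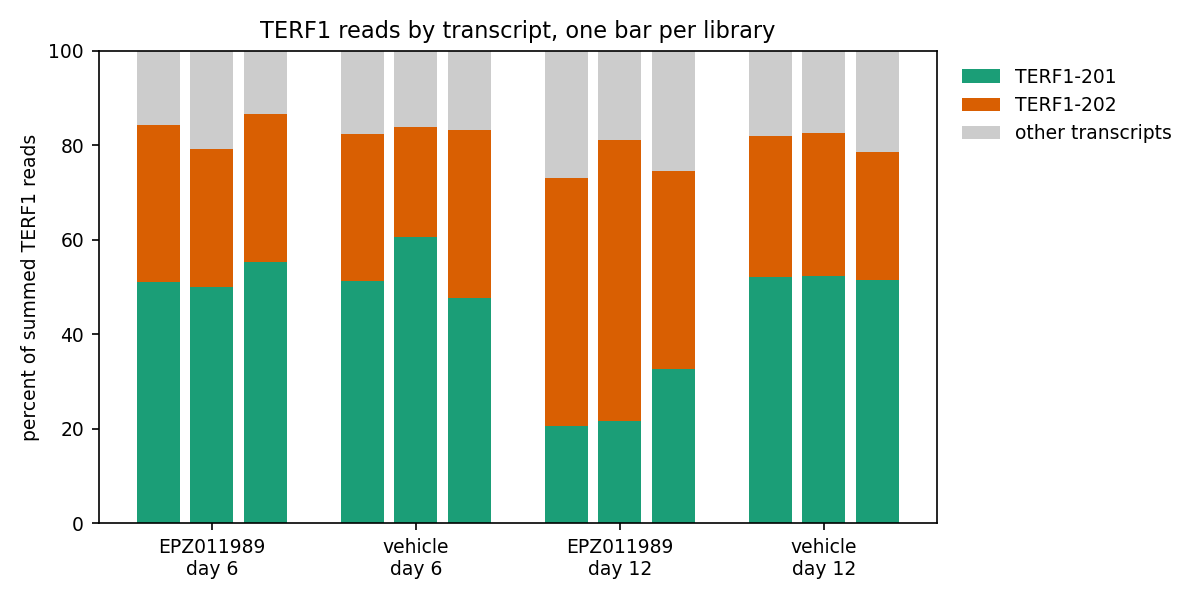
Share of summed TERF1 reads assigned to TERF1-201, TERF1-202 and other transcripts, as percent, with a bar for each library. TERF1-201 takes 20.6 to 32.6% in EPZ011989 libraries of day 12 and 51.4 to 52.2% in vehicle libraries of day 12.

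The plot of TERF1 transcript shares shows the day 12 EPZ011989 libraries apart from the other 9.

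Related genes were counted from lists. At day 6, 24.3% of all genes were called, 13.4% higher and 10.9% lower. At day 12, 60.8% were called, 31.0% higher and 29.8% lower. The counts stand beside these shares and beside all-gene medians of -0.02 and 0.02 on the log2 scale. Of 10 tested genes of telomerase assembly and RNA maturation, 1 was higher and 3 lower at day 6. At day 12, 1 was higher and 5 lower, and the medians at day 6 and day 12 were -0.01 and -0.21. GAR1, the remaining H/ACA subunit, fell at day 6 and day 12, with log2 fold changes of -0.36 ± 0.11 and -0.92 ± 0.11 (limma adjusted p = 0.0338 and 7.98e-06). NAF1, which precedes GAR1 on the maturing particle, fell too, with -0.45 ± 0.14 and -0.81 ± 0.14 (0.0283 and 1.66e-04). COIL, the Cajal body scaffold, fell at day 12 by 0.48 ± 0.08 (8.73e-05), as did NOLC1, a nucleolar chaperone, by 0.43 ± 0.04 (1.08e-06). TGS1, which trimethylates the cap of TERC, rose by 0.26 ± 0.09 and 0.35 ± 0.09 (0.0455 and 0.00358).

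Among 10 genes of end protection and replication, 1 rose and 2 fell at day 6, beside 24.3% of all genes called. At day 12, 1 rose and 5 fell, beside 60.8% called, 31.0% higher and 29.8% lower. The medians were -0.14 and -0.26. TERF2IP (RAP1), the shelterin subunit that binds TERF2, was the one that rose, by 0.21 ± 0.06 at day 6 and 0.76 ± 0.06 at day 12 on the log2 scale (limma adjusted p = 0.0149 and 4.35e-08). The helicase BLM fell, with -0.60 ± 0.14 and -2.53 ± 0.14 (0.00745 and 2.72e-09). At day 12 PIF1, a helicase known in yeast to remove telomerase from ends, fell by 1.92 ± 0.15 (limma adjusted p = 8.03e-08), and the nuclease DCLRE1B (Apollo) fell by 0.90 ± 0.13 (4.79e-05). RTEL1, a helicase that unwinds the protective loop, fell at both days, with -0.51 ± 0.15 and -0.55 ± 0.15 (0.0263 and 0.00729).

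Of 7 regulators of telomerase access, 1 rose and 1 fell at day 6, and at day 12 all 7 changed, 2 higher and 5 lower, beside 24.3% and 60.8% of all genes called, with medians of -0.12 and -0.50. RIF1 fell by 1.14 ± 0.06 on the log2 scale (limma adjusted p = 2.08e-09) and HNRNPA2B1 by 0.79 ± 0.04 (1.30e-09), and TNKS, the tankyrase that releases TERF1 from telomeres, rose by 0.54 ± 0.10 (3.09e-04). Of 5 genes tied to recombination-based lengthening, 1 fell at day 6, and 1 (SMARCAL1) rose and 4 fell at day 12, beside the same 24.3% and 60.8%, with medians of -0.19 and -0.54. The chaperone DAXX fell at day 12 by 0.54 ± 0.08 (limma adjusted p = 7.78e-05). Of 6 box C/D and nucleolar genes, which act beside the H/ACA particles in ribosome production, 0 passed at day 6 by limma, edgeR or DESeq2, and 0 had an unadjusted p under 0.05. At day 12, 5 fell (median -0.92), beside 29.8% of all genes, among them FBL, the methyltransferase fibrillarin, by 1.13 ± 0.08 (1.95e-08), and SNU13, named after its values were seen, did not pass (0.02 ± 0.08).

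Of 10 transcription factors known at the TERT gene, 2 rose and 2 fell at day 6, and 2 rose and 4 fell at day 12, beside 24.3% and 60.8% of all genes called, with medians of 0.01 and 0.07. MYCL, the MYC family member that the small T antigen of Merkel cell polyomavirus recruits, rose by 0.63 ± 0.07 and 1.64 ± 0.07 on the log2 scale (limma adjusted p = 1.13e-05 and 9.51e-11). SP1, a GC box factor, fell, with -0.29 ± 0.07 and -0.80 ± 0.07 (0.00911 and 3.95e-07). At day 12 SP3 fell by 0.70 ± 0.07 (1.02e-06) and GABPB1, a partner of the ETS factor GABPA, by 0.95 ± 0.13 (2.86e-05). MYCN rose at day 6 by 1.61 ± 0.38 (0.00769), and MXD1, a MAX partner that represses, fell then by 0.29 ± 0.08 (0.0215) and rose at day 12 by 0.46 ± 0.08 (2.99e-04).

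The genes whose profile over the 12 libraries was most like TERT, by Pearson correlation of log2(value + 1), were APOLD1 (0.972), MOV10 (0.966), ZNF273 (0.959), MYOCD (0.958) and UTP18 (0.958). These points share the 4 groups and the large day 12 step, so the values are a description. Of the other 9 members, DKC1 was closest to TERT (0.929, rank 134), followed by TERF1 (0.815), NHP2 (0.714) and ACD (0.711). TINF2 had 0.433, NOP10 0.373 and WRAP53 0.347, and POT1 (-0.178) and TERF2 (-0.185) were below 0.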

How the data were processed

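The authors deposited, per library, estimated counts and TPM per transcript made with Salmon 1.2.0 (FastQC, DESeq2 and hg38 are named as well, per the submitters' processing notes). They also deposited a normalized gene signal for the whole series, and its method of normalization was not found in the labels or headers. Main test: limma 3.58.1 (R 4.3.3) with trend on log2(signal + 1) of the deposited signal, 12 libraries, 4 group means, genes with at least 10 in 3 libraries (14618), two-sided, Benjamini-Hochberg over all, threshold 0.05. This table was used because TERT is summed only in part from transcripts. The deposited estimated counts of 168219 of 179883 transcripts (93.52%) matched by GENCODE v29 identifiers were summed per gene, rounded, and tested with edgeR 4.0.16 and DESeq2 1.42.0 as alternatives. The rest, 3.08 to 3.58% of reads, were left out. Per-transcript tests and shares were added after seeing the data. The exact intervals of the TERT read ratios and the floors of 3 reads cover counting error only. The limma intervals describe the scatter of libraries.

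Named genes were the 10 members, up to 4 genes per related list and treatment comparison with the smallest p, the 5 genes most correlated with TERT, and transcripts with at least 10% of a gene's reads. Members and lists were chosen with earlier results of these data known. Scripts were tested on simulated data. Replicate numbers gave no clear pairing of libraries (correlation of deviations -0.055 to 0.030), so the fit had no block. Other settings were pseudocounts, filters, scalings, the libraries of a contrast alone, a stricter threshold and leaving out each library.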

Additional observations from a re-analysis of the deposited data

Results flagged for a closer look

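For DKC1, TERF1 and WRAP53 the treatment difference at day 12 was not the same as at day 6, by limma's test of the difference between the days. TERT is given beside them as a description without a test, since it was singled out with its values known. On the log2 scale TERT differed by -3.92, DKC1 by -0.55, TERF1 by -0.80 and WRAP53 by 0.42. WRAP53 was the only one of the 4 with a less negative difference at day 12. Its call was lost under 15 alternatives and kept under 9.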

How the results depend on the processing

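The calls of DKC1, NHP2, TERF1, TINF2 and ACD at day 12 kept their direction under every alternative run. The NHP2 call was lost under 6 alternatives and kept under 19, and the TINF2 call was lost under 5 and kept under 20. At an adjusted p under 0.01, limma called 2010 genes at day 6 (3553 at 0.05), 3591 for the difference of effects (5444) and 8 in the vehicle comparison (142), and 0 of the 10 genes at day 6 (3 at 0.05, 5 at an unadjusted p under 0.05). On summed reads, edgeR (either scaling, or no filter) and DESeq2 each called 6 of the 10 at day 6. In the vehicle comparison edgeR called 1973, 2042 with DESeq2 size factors and 2295 with no filter, DESeq2 called 2780, and of the 10 these called 3, 3, 4 and 3. There limma called 63 with no filter, 0 with only those libraries (2352 at an unadjusted p under 0.05) and 217 with the replicate block. Replicate numbers gave no clear pairing of libraries. Between the vehicle groups each library matched best the one of its own number, but with correlations of deviations of only 0.016 to 0.03. The block moved no other count of calls by over 1.5 times, and of the single calls it took away that of the WRAP53 difference of effects (adjusted p = 0.0558).

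Leaving out 1 library gave 1 to 5 of the 10 at day 6, and 10 to 1167 genes and 0 to 4 of the 10 in the vehicle comparison, the highest without replicate 3 of the day 12 vehicle group.

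Signs turned only for values that did not pass. In the order edgeR, edgeR with DESeq2 size factors, edgeR with no filter and DESeq2, the log2 values at day 6 were -0.031, -0.026, -0.016 and -0.027 for TERF2. At day 12 they were -0.12, -0.11, -0.13 and -0.11 for NOP10 and -0.068, -0.059, -0.078 and -0.060 for WRAP53. For the difference of effects they were -0.11, -0.10, -0.13 and -0.10 for NOP10 (-0.0097 with TMM scaling of the authors' table) and -0.20, -0.19, -0.22 and -0.19 for POT1, and in vehicle 0.088, 0.098, 0.081 and 0.098 for POT1. NOP10 at day 6 was -0.012, -0.0074 and -0.0076 by edgeR, edgeR with DESeq2 size factors and DESeq2. Without 1 library, day 6 values ran from -1.14 to 0.0006 for TERT, -0.061 to 0.039 for NOP10, -0.027 to 0.053 for TERF2, -0.10 to 0.0047 for TINF2 and -0.023 to 0.10 for POT1. NOP10 ran from -0.26 to 0.21 at day 12 and from -0.26 to 0.21 for the difference of effects, NHP2 from -0.16 to 0.097 for that difference, and in vehicle TERT from -0.64 to 0.28 and POT1 from -0.054 to 0.074. The cause of these changes was not tested. TERT had 0 to 86 matched reads per library.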
